A study of Danio rerio with 6 samples.

Results

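Maternal transcripts of the Nodal and BMP signalling pathways were followed in RNA bound to Tdrd6a, a Tudor domain protein of the zebrafish germ plasm. The genes were picked by symbol, by a rule that does not use their values, though earlier results of these data were known. Of 9 symbols in the rule, 8 were in the table of 21051 genes: the ligand gene dvr1, the receptor genes acvr1b and acvr1l, the pseudoreceptor gene bambia, and smad1, smad2, smad3b and smad5. The remaining symbol, gdf3, is another name for dvr1, the zebrafish Vg1 gene. The assay was RIP-seq, in which the RNA that comes down with an antibody-bound protein is sequenced beside the starting RNA. There were 3 libraries of RNA from Tdrd6a immunoprecipitates (IP) of zebrafish zygotes and 3 libraries of input RNA from zygotes. The labels give no genotype, strain, age after fertilisation or treatment. Nor do they tell if replicates stem from different clutches, so the p-values rest on a spread among 6 libraries that can be technical. A mock precipitate was not analysed here, and a higher value in IP is a difference from input alone.

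Nodal and BMP ligands belong to the TGF-beta superfamily. They bind pairs of type I and type II receptor kinases, which phosphorylate receptor Smads. Smad2 and Smad3 carry the Nodal and activin signal, Smad1, Smad5 and Smad9 carry the BMP signal, and both kinds enter the nucleus with Smad4. In the zebrafish embryo, Nodal signalling induces mesoderm and endoderm and BMP signalling patterns the ventral side. The egg supplies much of the machinery: maternal Vg1 protein pairs with the zygotic Nodal ligands, and maternal Smad5 and the type I receptor encoded by acvr1l (Alk8) are needed for ventral patterning.

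The libraries held between 4031863 and 22466764 reads, and IP replicate 2 was the shallowest, where 1 read was worth 3.76 normalized counts against 0.682 to 1.21 in the other libraries. Normalized counts are reads divided by a size factor for each library, as the authors deposited them. All 12 matched egg and zygote genes were detected. In a list of 11 genes taken as transcribed after genome activation, sox17 and gata5 were at 0 in all libraries. The summed level of that list was 2275 to 3323 normalized counts in input and 2433 to 3533 in IP, most of it from id2a. Also detected were id3, with 547 to 747 normalized counts in input and 427 to 655 in IP, and id1, with 66.9 to 78.5 and 45.9 to 109. Whether the RNA of id1, id2a and id3 was maternal was not tested. Of 8 genes of ovarian somatic cells, cyp19a1a, lhcgr and inha were at 0 throughout. That list summed to 2422 to 3311 in input and 3606 to 5274 in IP, most of it from cyp11a1, and its part in the results was not tested. In the same list hsd3b1 had 166 to 257 normalized counts in input and 80.8 to 369 in IP. The values of gsdf were 8.80 to 38.1 in input and 13.2 to 26.3 in IP. For blood only alas2 was matched, with at most 8.20 normalized counts in any library.

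IP was compared with input by limma, a linear model with a shared estimate of spread, on log2(normalized count + 4) over all genes with a mean of at least 10. This fit did not use the replicate numbers. None of the 8 transcripts passed its threshold of an adjusted p under 0.05, in either direction, against 6.32% of the 13265 genes tested. At an unadjusted p under 0.05 there were 2, bambia and acvr1b, against 2814 of the 13265 genes tested. The transcript of bambia lay closest to the threshold and had the highest estimate, 4.35-fold above input. On recovered reads edgeR and DESeq2 each called 1 transcript, bambia, as higher, where they called 4.43% and 8.0% of all genes tested higher. With replicate number as a block, limma also called bambia higher (adjusted p = 0.00431), as it did 6.97% of all genes tested. The estimates of 7 transcripts lay above 0, against 49.6% of all genes tested. The median over the 8 was 0.54 on the log2 scale, against -0.01 over all genes tested. IP exceeded input without overlap for 2 transcripts, bambia and acvr1b, a pattern found in 14.6% of all genes tested. All 8 reached the abundance minimum of a mean of 10 normalized counts, smad1 (mean 10.3) only through its value in input replicate 2.

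**Figure D1:**
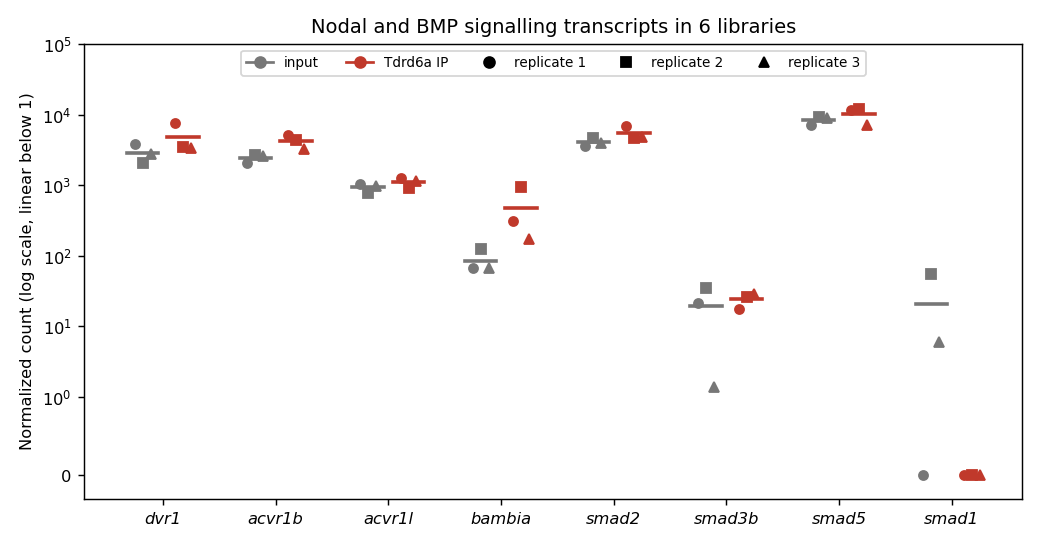
Normalized counts (logarithmic axis, linear below 1) of the 8 transcripts in 3 input (grey) and 3 Tdrd6a IP libraries (red), with a marker shape for each replicate number and a line at each group mean. The IP points of bambia and acvr1b lie above all their input points, the other transcripts overlap, and smad1 is at 0 in all 3 IP libraries.

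The ligand transcript dvr1 (ENSDARG00000037995) encodes Vg1, which is made in the oocyte and forms heterodimers with Nodal. It had 3773, 2086 and 2776 normalized counts in input replicates 1, 2 and 3, and 7570, 3508 and 3355 in IP replicates 1, 2 and 3. IP replicate 1 was the highest library, and both other IP libraries lay below input replicate 1, so the groups overlapped. The estimate was 1.60-fold, or 0.68 ± 0.36 on the log2 scale (estimate ± SE, limma adjusted p = 0.324), with a 95% interval (not adjusted for the number of genes) from 0.916-fold to 2.79-fold. Without IP replicate 1 it was 0.30 on the log2 scale. Set against the input of the same number, IP was 2.01-fold, 1.68-fold and 1.21-fold higher in replicates 1, 2 and 3. The groups overlapped although each IP library exceeded its own input, since input replicate 1 was also the highest input library. With replicate number as a block, limma did not call dvr1 either (adjusted p = 0.192).

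Among 10340 tested genes with a mean of at least 50 normalized counts, the named genes nearest to dvr1 in their course over the 6 libraries were si:dkeyp-66d1.5, ndrg3b and aar2. Their Euclidean distances on the log2 scale, with each gene centred on its mean, were 0.285, 0.346 and 0.384.

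Neither type I receptor transcript was called, and IP stood clear of input for acvr1b alone. The transcript acvr1b (ENSDARG00000018968) encodes an activin and Nodal receptor. It had 2069, 2650.0 and 2569 normalized counts in input replicates 1, 2 and 3, and 5132, 4297 and 3283 in IP. Every IP library lay above every input library. The estimate was 1.72-fold (log2 fold change 0.79 ± 0.27, adjusted p = 0.116), with a 95% interval from 1.14-fold to 2.61-fold, and it was not called in any of 16 alternative analyses, where adjusted p ranged from 0.0559 to 0.345.

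The transcript acvr1l (ENSDARG00000014986), for the BMP receptor Alk8, had 1047, 766 and 984 normalized counts in input, compared with 1261, 917 and 1132 in IP. The groups overlapped, and the estimate was 1.18-fold (0.24 ± 0.26, adjusted p = 0.663), with a 95% interval from 0.790-fold to 1.77-fold. Against the input of the same number, IP stood at 1.20-fold, 1.20-fold and 1.15-fold in replicates 1, 2 and 3, the narrowest spread of the 8. IP exceeded the input of the same number in all 3 pairs for 4 transcripts, dvr1, acvr1b, acvr1l and bambia, against 23.6% of all genes tested.

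Ratios of reads within a library do not depend on scaling between libraries. The ratio of acvr1b to acvr1l reads was 1.98, 3.46 and 2.61 in input and 4.07, 4.68 and 2.90 in IP. The groups overlapped, because IP replicate 3 was below input replicate 2, and the two-sided exact permutation p was 0.2 (adjusted p = 0.5 over the 5 ratios compared). That test does not use the replicate numbers, and its smallest p is 0.1. Within each pair of the same number, the ratio was higher in IP than in input.

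The pseudoreceptor transcript bambia (ENSDARG00000055381) encodes a membrane protein that resembles a type I receptor without its kinase domain and dampens BMP, activin and TGF-beta signalling. It had 67.2, 123 and 66.8 normalized counts in the input libraries and 314, 936 and 173 in the IP libraries. These values rest on 60, 167 and 98 reads in input and 452, 249 and 143 reads in IP. All 3 IP libraries lay above all input libraries, and the IP libraries spread over a wider range than the input libraries.

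The estimate for bambia was 2.12 ± 0.57 on the log2 scale (limma, adjusted p = 0.0561), with a 95% interval from 1.80-fold to 10.5-fold. It stood at rank 297 of the 13265 genes tested. With replicate number as a block, the same estimate had an adjusted p of 0.00431 and passed the threshold, as did 6.97% of all genes tested on the higher side. Without IP replicate 2, the highest library, the estimate was 1.46 (adjusted p = 0.0563), and without IP replicate 3, the lowest IP library, it was 2.67 (adjusted p = 0.0141). Limma did not call bambia without IP replicate 1 (adjusted p = 0.145), nor when any 1 input library was left out (0.102 to 0.194).

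The size of the bambia difference varied between IP libraries, as did that of known germ plasm transcripts, which share the input libraries. Over the input mean, bambia stood at 3.69-fold, 10.9-fold and 2.05-fold in IP replicates 1, 2 and 3. The median of 11 germ plasm transcripts stood at 42.3-fold, 102-fold and 17.3-fold. Replicate 2 was highest and replicate 3 lowest in both, an order shown by 20.3% of all genes tested, and bambia was well below the germ plasm median in every IP library. For smad5, IP replicate 3 was also lowest, and replicates 1 and 2 were nearly equal (1.39-fold, 1.40-fold and 0.829-fold in replicates 1, 2 and 3). For dvr1 the values were 2.71-fold, 1.25-fold and 1.20-fold, with replicate 1 highest.

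**Figure D2:**
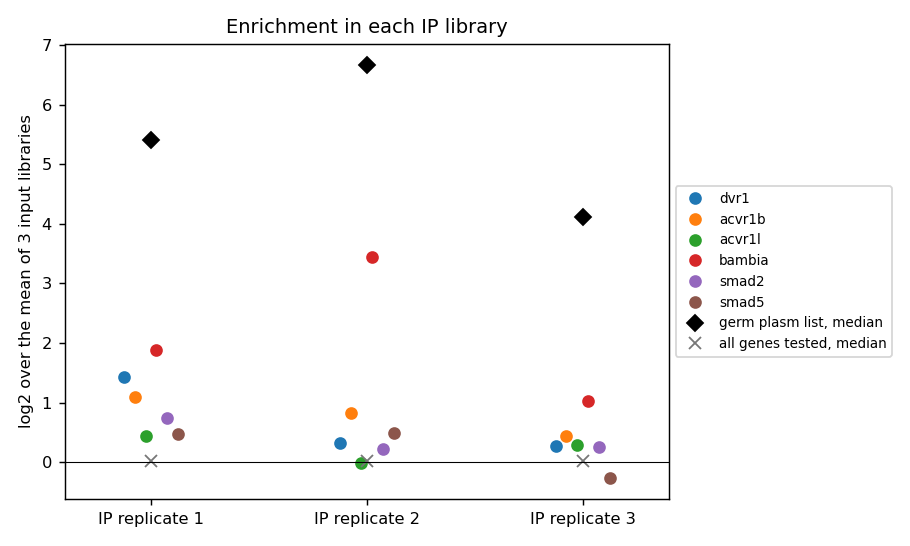
Log2 ratio of each IP library to the mean of the 3 input libraries for 6 transcripts (circles), the median of 11 germ plasm transcripts (diamonds) and the median of all genes tested (crosses). bambia lies above the other 5 in each IP library. Like the germ plasm median, bambia and smad5 are highest in replicate 2 and lowest in replicate 3.

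The ratio of bambia to acvr1b reads was 0.0325, 0.0463 and 0.0260 in input and 0.0612, 0.218 and 0.0526 in IP. The groups did not overlap, and the two-sided exact permutation p was 0.1, the smallest that 3 libraries against 3 allow (adjusted p = 0.5 over the 5 ratios). Against dvr1 reads the ratio overlapped, at 0.0178, 0.0589 and 0.0241 in input and 0.0415, 0.267 and 0.0514 in IP (two-sided exact permutation p = 0.3), and was higher in IP within each pair of the same number. The ratio of dvr1 to acvr1b reads also overlapped, at 1.82, 0.787 and 1.08 in input and 1.48, 0.816 and 1.02 in IP (two-sided exact permutation p = 0.8). The other bambi gene, bambib (named after its values were seen), had at most 9.70 normalized counts in any library and was not tested.

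None of the 4 Smad transcripts was called, and 2 of them, smad1 and smad3b, were too rare to judge. The transcript smad2 (ENSDARG00000006389), for a Smad that carries the Nodal signal, had 3620, 4730 and 3901 normalized counts in input, compared with 6824, 4722 and 4838 in IP. IP replicate 1 was high, IP replicate 2 lay just below input replicate 2, and the groups overlapped. The estimate was 1.33-fold (0.41 ± 0.27, adjusted p = 0.435), with a 95% interval from 0.876-fold to 2.01-fold.

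The transcript smad5 (ENSDARG00000037238), for the BMP effector, had 7234, 9194 and 9053 normalized counts in the input libraries and 11742, 11847 and 7002 in the IP libraries. IP replicate 3 was the lowest of all 6 libraries, while both other IP libraries were above all input libraries. The estimate was 1.17-fold (0.23 ± 0.30, adjusted p = 0.722), with a 95% interval from 0.742-fold to 1.86-fold. The ratio of smad2 to smad5 reads was 0.500, 0.515 and 0.431 in input and 0.581, 0.399 and 0.691 in IP, and the groups overlapped (two-sided exact permutation p = 0.5).

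The transcript smad3b (ENSDARG00000010207), for another Nodal effector, was rare, with 21.3, 35.3 and 1.40 normalized counts in input, compared with 17.4, 26.3 and 29.0 in IP. It rested on 2 reads in input replicate 3 and on 7 reads in IP replicate 2. The estimate of 0.66 ± 0.80 (adjusted p = 0.696) had an interval from 0.468-fold to 5.37-fold and turned to -0.18 without input replicate 3. Input replicate 2 held 48 reads, while input replicate 3, with its 2 reads, was the deepest input library. A difference was not detectable with so few reads and this spread among the input libraries.

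The transcript smad1 (ENSDARG00000027199), for a BMP effector, had 76 reads in input replicate 2, 9 in input replicate 3, 0 in input replicate 1 and 0 in all 3 IP libraries. A count of 0 allows up to 3 reads, which is 0.134, 0.744 and 0.309 CPM (reads as CPM of the library total) in IP replicates 1, 2 and 3 and 0.286 in input replicate 1. Input replicate 3 held 0.454 CPM, within the limit of IP replicate 2. Input replicate 2 stood apart with 4.74 CPM. With an input library also at 0, a fold is not given, and limma did not call the gene (adjusted p = 0.401), nor did edgeR (adjusted p = 0.142). DESeq2 gave no adjusted p (unadjusted p = 0.00403).

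**Figure D3:**
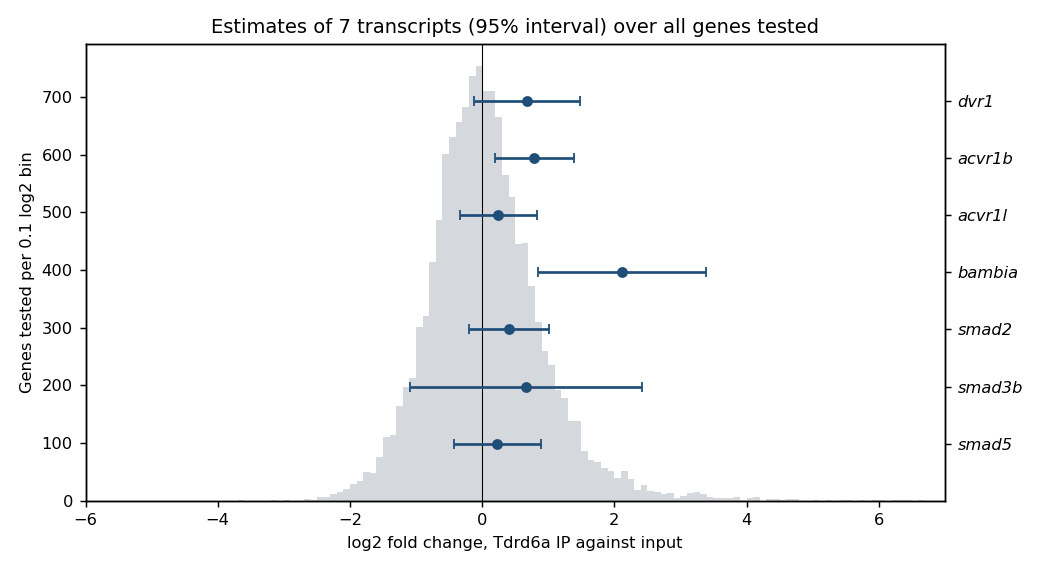
Log2 fold changes of 7 transcripts with 95% intervals (points and bars, right axis) over the distribution of the estimates of all 13265 genes tested (grey, left axis). The bars of bambia and acvr1b stay above 0, those of the other 5 cross it, and smad1, at 0 in every IP library, is left out.

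In the wider pathway, gdf9, furina, map3k7 and eomesa were higher in IP and foxh1 was lower. Lists by role matched 113 further genes, of which 71 were tested and 42 fell below the abundance minimum. Of the 71, limma called 4 higher and 1 lower and left 66 uncalled. The background was 4.46% of all genes tested called higher and 1.86% called lower. Their median log2 fold change was 0.14. With the replicate block 7 were called higher, the 4 and also pias4b, strap and tab1 (the latter pair named after their values were seen), and 1 lower. The higher count was 1 on dropping any 1 input library and 7 without IP replicate 2, and the lower count was 3 without IP replicate 2 and 0 on dropping any 1 of the other 5 libraries. The counts over all 13265 genes tested moved too. They were 925 higher and 467 lower with the block, and 1185 and 547 without IP replicate 2. Without input replicates 1, 2 and 3 the higher counts over all genes were 170, 239 and 188.

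Most ligand genes fell below the abundance minimum. Of 9 genes listed as Nodal, activin, Vg1 or myostatin type ligands, a list that shares genes with that of the antagonists, 3 were tested. The 1 called higher, against 4.46% of all genes tested, was gdf9, which encodes an oocyte growth factor. It had 318, 237 and 421 normalized counts in the input libraries and 1507, 2436 and 722 in the IP libraries, without overlap. The estimate was 2.11 ± 0.43 (adjusted p = 0.0184). The call was lost without IP replicate 1 (adjusted p = 0.0838) and when any 1 input library was left out (0.0574 to 0.0906).

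The Nodal ligand gene ndr1 (squint) had 105, 5.10 and 123 normalized counts in input, compared with 6.90, 18.8 and 60.3 in IP, and the estimate was -1.0 ± 1.06 (adjusted p = 0.656). Dropping input replicate 2 gave -2.23, and dropping input replicate 1 or 3 gave -0.43 or -0.33. Dropping IP replicate 1 gave -0.39 and dropping IP replicate 3 gave -1.67, and ndr1 was called in none of these fits. At an unadjusted p under 0.05 in limma lay 2814 of all 13265 genes tested. Of 20 BMP and TGF-beta ligand genes 9 were tested and 0 called by limma, with 1 at an unadjusted p under 0.05, the oocyte factor gene bmp15. This transcript had 1271, 1375 and 1158 normalized counts in the input libraries and 1692, 2271 and 3078 in the IP libraries, with an estimate of 0.85 ± 0.28 (adjusted p = 0.104). It was called by DESeq2 (adjusted p = 0.0477), and edgeR called none of the 9. The ventral ligand gene bmp2b had 2, 0 and 18 reads in input and 24, 3 and 34 in IP. It reached the abundance minimum through its IP values alone, so its estimate of 1.71 ± 0.83 (adjusted p = 0.27) is a description. The estimate for gdf10a was -1.44 (adjusted p = 0.334), and on dropping input replicate 2, IP replicate 1 or IP replicate 2 it was -2.09, -2.05 or -0.90.

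Receptor genes were not called in the limma fit. Of 11 type I receptor genes 7 were tested, with a median of 0.24 and a range from -0.24 to 0.79, in which acvr1b was highest and the BMP receptor gene bmpr1aa lowest (adjusted p = 0.673). Of 6 type II receptor genes 4 were tested, between 0.14 and 0.42, with acvr2b at 0.42 (adjusted p = 0.511), acvr2ab at 0.26 and tgfbr2 at 0.21. The gene oep, for the Nodal co-receptor One-eyed pinhead, had 639, 642 and 466 normalized counts in input, compared with 516, 617 and 466 in IP, with overlap (-0.12 ± 0.28, adjusted p = 0.858). The repulsive guidance molecule gene rgmd was at -0.33 (adjusted p = 0.638). With all 6 libraries, edgeR and DESeq2 called bambia alone among these receptor and co-receptor genes. Without IP replicate 2, limma called acvr2b higher (0.77, adjusted p = 0.0452), in a fit that called 1185 of all 13265 genes tested higher.

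Of 11 Smad genes 10 were tested and 0 called by limma or edgeR, and by DESeq2 0 of those it gave an adjusted p, which smad1 lacked. In limma 1 was at an unadjusted p under 0.05, against 2814 of all 13265 genes tested. It was smad4, for the Smad shared by both pathways, with 285, 249 and 288 normalized counts in the input libraries and 600, 455 and 343 in the IP libraries. Its groups did not overlap, and the estimate was 0.73 ± 0.31 (adjusted p = 0.208). The inhibitory smad7 had 20.2, 118 and 10.9 normalized counts in input, compared with 52.8, 117 and 77.2 in IP (1.22 ± 0.75, adjusted p = 0.393), and replicate 2 was high in both groups. The estimate was 2.11 without input replicate 2 (adjusted p = 0.11) and 0.60 without input replicate 3. Of 17 genes of secreted antagonists and their proteases 5 were tested and 0 called by limma, edgeR or DESeq2, with 0 at an unadjusted p under 0.05. Of these fstl1b was at 0.67 and bmp1a, of the tolloid family of proteases, at 0.39. The Chordin protease gene tll1 (0, 8.10 and 8.20 normalized counts in input; 8.30, 11.3 and 26.5 in IP) reached the abundance minimum through its IP values alone, so its estimate of 1.09 (adjusted p = 0.495) is a description. The BMP antagonist gene chd (named after its values were seen) was at 0 in all input libraries and had at most 4.90 normalized counts in IP.

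The largest difference in the pathway was that of furina, which encodes a Furin protease of the kind that cleaves TGF-beta family precursors. It had 813, 648 and 1161 normalized counts in the input libraries and 9527, 7422 and 3675 in the IP libraries. Even the lowest IP library, replicate 3, was well above the highest input library, and the estimate was 2.90 ± 0.37 (adjusted p = 0.00207). The call held in all 16 alternative analyses. The paralog furinb had 249, 382 and 325 normalized counts in input, compared with 454, 500 and 333 in IP, with overlap (0.43 ± 0.31, adjusted p = 0.481); it was named after its values were seen.

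Among 31 intracellular modulators, of which 27 were tested, map3k7 was the other gene called higher, as were 4.46% of all genes tested. It encodes Tak1, a kinase of non-Smad TGF-beta and BMP signalling. It had 3293, 3881 and 4602 normalized counts in the input libraries and 17560, 11471 and 9402 in the IP libraries, without overlap (1.67 ± 0.31, adjusted p = 0.0109). Its call was lost when any 1 input library was left out (adjusted p of 0.0597 to 0.0903). The SUMO ligase gene pias4b, with 694, 870 and 882 normalized counts under input and 2132, 1376 and 1455 under IP, was at 1.0 ± 0.27 and just missed the threshold (adjusted p = 0.0558, or 0.0494 with the replicate block).

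Among nuclear partners of Smads, limma called 1 gene lower and 1 higher, against 1.86% and 4.46% of all genes tested. The transcript foxh1, for the main DNA-binding partner of Smad2 in Nodal signalling, was lower in IP, with 2346, 2426 and 2334 normalized counts in input, compared with 899, 1410 and 835 in IP. The groups did not overlap, with IP below input as in 12.9% of all genes tested (-1.21 ± 0.27, adjusted p = 0.0264). The call was lost with no filter beyond 1 read (adjusted p = 0.0548) and when any 1 library other than IP replicate 2 was left out (0.0598 to 0.116). The transcript of the T-box factor eomesa, by contrast, had 2070, 1952 and 2243 normalized counts in the input libraries and 11314, 10377 and 4551 in the IP libraries (1.96 ± 0.35, adjusted p = 0.0101), a call lost on dropping any 1 input library (0.0612 to 0.0708). All 11 nuclear partners were tested, and 4 were at an unadjusted p under 0.05 in limma, against 2814 of all 13265 genes tested. Named after its values were seen, pou5f1 had 7215, 7046 and 6825 normalized counts in input, compared with 3086, 5049 and 2563 in IP, without overlap (-1.04 ± 0.30, adjusted p = 0.0659). It passed the threshold with library size only (-1.23, adjusted p = 0.0211), with DESeq2 (0.0177) and without IP replicate 2 (-1.32, 0.00262).

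**Figure D4:**
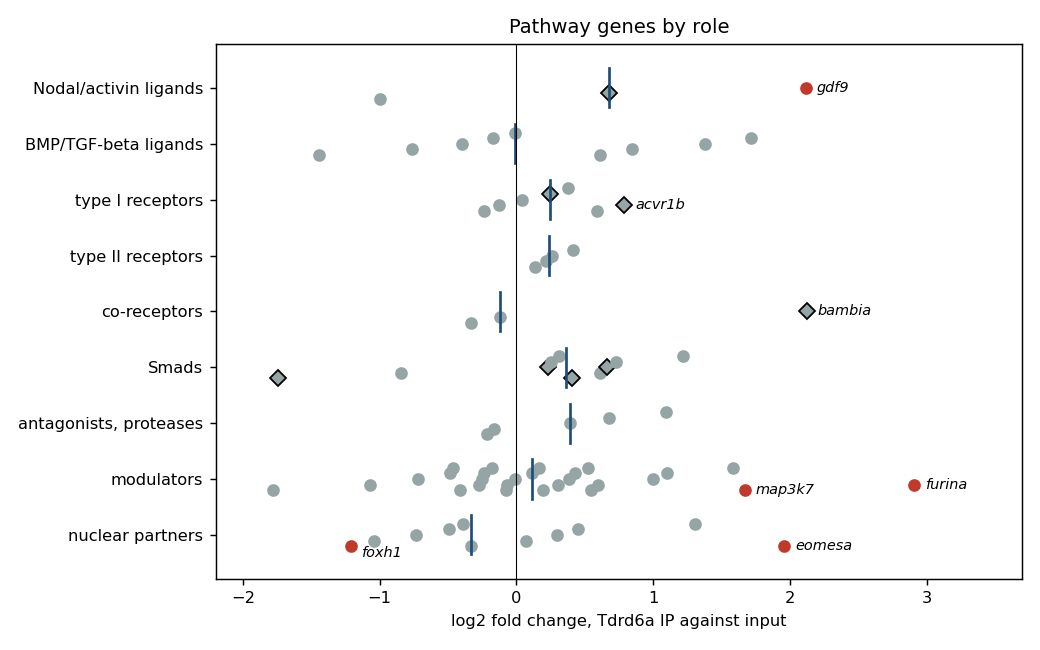
Log2 fold changes of the tested genes of each role, one point per gene, with the median of the role as a blue line. Red marks genes at an adjusted p under 0.05 (gdf9, furina, map3k7 and eomesa higher, foxh1 lower), grey the others, and diamonds mark the 8 transcripts selected by symbol, none of them red.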

How the data were processed

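RIP-seq libraries of zebrafish zygotes (3 Tdrd6a IP, 3 input) were grouped by their labels. Trizol extraction, the Ovation RNA-seq System V2 kit and 50 bp single-end sequencing are stated per the labels' protocols. TopHat, DESeq and Zv9 are named, with no versions, in the submitters' processing notes. How reads were counted, with which annotation and whether by strand, is not given in the sources used here, so reads of overlapping antisense genes, and reads shared by close paralogs such as smad3a and smad3b, cannot be told apart. The authors deposited a read-count signal, normalized counts with 1 decimal. Low values were whole multiples of the value of 1 read, and 100% of values above 0 lay within 0.06 of a whole multiple, so whole reads were recovered. The totals were 10481205, 16048024 and 19804774 reads in input replicates 1, 2 and 3 and 22466764, 4031863 and 9701595 in IP. On these reads edgeR called 588 genes higher and 253 lower. Intervals and floors from reads cover counting error only.

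The test was limma 3.58.1 (trend, robust; R 4.3.3) on log2(normalized count + 4), two-sided, over all 13265 genes with a mean of at least 10, with Benjamini-Hochberg adjustment and calls under 0.05. Fold changes are on that log2(value + 4) scale, where changes of low genes come out too small. Alternatives used edgeR 4.0.16 and DESeq2 1.42.0 on recovered reads, other scalings, filters and pseudocounts (1, 16), a replicate block and each library left out. Libraries of the same number deviated together across genes (r of 0.294, 0.305 and 0.301), so the numbers were taken as pairs. The reported fit, with its errors, intervals and calls, did not use these pairs. The blocked value is given where it changes a call, and for dvr1. No pair of libraries in a group agreed within sampling noise. Remaining steps ran in Python 3.11.15 (numpy 2.4.6, pandas 2.3.3; figures in matplotlib 3.10.9; exact permutation tests in scipy 1.17.1).

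The members, the gene lists and the tests were chosen with earlier results of these data known. Named genes were all members, every called gene of the role lists, and the 3 genes of smallest p in each list of ligands, receptors, Smads, antagonists and modulators; others are marked. List genes were matched by symbol in the file, then by a table of gene identifiers and symbols. Transcript lengths and sequences were not used here, so levels are not compared between genes.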

Additional observations from a re-analysis of the deposited data

How the results depend on the processing

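The sign of the 8 selected transcripts held in the alternatives that tested them (16 each, or 15 for smad1 and smad3b, which fell below a CPM of 5 in 3 libraries), except for smad3b, at -0.18 without input replicate 3 (leave-one-out range -0.18 to 1.25); tgfbr2 turned to -0.019 without input replicate 1 (range -0.019 to 0.55). The number of selected transcripts called higher, 0 in the reported fit, was 1 (bambia) with library size only, edgeR, DESeq2, the limma replicate block and the edgeR replicate block, and 0 to 1 with a library left out (1 without IP replicate 3); the number called lower was 0 in all. For other pathway genes, 4 higher and 1 lower became 8 higher and 2 lower with DESeq2, 7 higher with the limma replicate block, 2 lower with library size only and 0 lower with no filter beyond 1 read. Leaving out a library gave 1 to 7 higher (1 on dropping any input library, 7 on dropping IP replicate 2) and 0 to 3 lower (3 on dropping IP replicate 2, 0 on dropping any other library). The cause of these shifts was not tested, and each fit with a library left out had fewer libraries. The replicate block changed no call of a named gene other than those given. Over all genes, limma called 591 higher and 247 lower, edgeR 588 and 253, and DESeq2 1061 and 571. With library size only the split was 474 to 383, the median of all genes moved from -0.01 to -0.18, and bambia stood at 1.94. With the replicate block it was 925 to 467, without IP replicate 2 1185 to 547, and without input replicates 1, 2 and 3 170 to 23, 239 to 34 and 188 to 10. With no filter beyond 1 read it was 399 to 101, and without IP replicate 1 271 to 60. The order of input levels per coding kilobase was not run, since lengths were not used here. Low read numbers limit smad1, smad3b and most ligand genes.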
